A study of Mus musculus with 8 samples.

Results

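The 10 genes described here encode the contractile apparatus of smooth muscle cells and myofibroblasts: Acta2, Actg2, Myh11, Myl9, Mylk, Tagln, Cnn1, Cald1, Lmod1 and Synpo2. They were taken by name from the 31053 genes of the count table, after its Ensembl identifiers had been matched to mouse symbols, by a rule that uses no measured value, although the genes were chosen with earlier results of these data known. All 10 were in the table, and 7 held enough counts to be tested among 9264 genes. Brown adipose tissue (BAT), the heat-producing fat depot of rodents, had been profiled by bulk RNA-seq in 4 WT mice of strain C57BL6/J and in 4 db/db mice, all 8 weeks old. Per the methods all mice were male and had been fasted before the tissue was taken. The db/db mice, B6.BKS(D)-Leprdb/J, carry a germline mutation of the leptin receptor gene Lepr in every tissue and become obese and diabetic. They came from Jackson. For WT mice the methods name Charles River, while the resource list also names C57BL/6J mice from Jackson, so the supplier of the WT mice is uncertain, and if it was Charles River, supplier and genotype cannot be told apart. Lepr itself had 0 counts in all 8 libraries, and the genotype labels could not be checked on its transcript at this depth.

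Smooth muscle contracts when calcium-bound calmodulin activates the kinase encoded by Mylk, which phosphorylates the myosin regulatory light chain and lets myosin pull on actin filaments. In adipose tissue the cells best known for this machinery are the smooth muscle cells and pericytes of blood vessels. Fibroblasts that turn into myofibroblasts, as in fibrosis, also assemble actin from Acta2. Several of the genes are not restricted to these cells, because Mylk and Cald1 also have non-muscle forms and the protein of Synpo2 is found at the Z-disc of striated muscle.

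Library totals ran from 2374079 to 3240074 counts, and 3 counts, taken as the floor of detection, were worth 0.902 to 1.33 CPM, the usual scaled count of RNA-seq. CPM here are counts divided by the library's total over tested genes and its TMM factor, a correction for composition. The labels give the cell type as stromal vascular fraction, the cells left when adipocytes are removed, and the tissue as BAT. The adipocyte genes Ucp1 (WT 2248 ± 387 CPM, db/db 1429 ± 457 CPM, SD, n = 4) and Adipoq (1534 ± 240 and 1909 ± 185) were high in both genotypes, so adipocyte RNA was present. Skeletal muscle RNA was present too, and its amount differed between libraries. The mean log2 CPM of Acta1, the skeletal muscle actin, and Ckm, the muscle creatine kinase, averaged 6.64 ± 0.88 over the 4 WT libraries and 9.38 ± 0.98 over the 4 db/db libraries (SD). The difference of 2.73 had an exact two-sided permutation p of 0.0286, the smallest that 4 against 4 samples can give. All 12 skeletal muscle markers examined were higher in db/db by the test described next, and 10 of them under DESeq2, limma-voom or a replicate block, or without WT replicate 3 or db/db replicate 1. Acta1 was highest in db/db replicate 1, at 3977 CPM, against 813 to 1788 CPM in the other db/db libraries and 110 to 395 CPM in WT.

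To determine which contractile genes differed between db/db and WT BAT, each was tested with edgeR's quasi-likelihood test, with p-values adjusted over all 9264 genes by the Benjamini-Hochberg method. Acta2, Mylk, Cald1 and Synpo2 were higher in db/db, and none was lower, at an adjusted p of 0.05. Of all genes tested, 27.7% were called, 15.8% higher and 11.9% lower. In these 4 genes every db/db library lay above every WT library, a pattern that 15.3% of all genes tested showed, while 12.7% showed the reverse. The median log2 fold change of the 7 tested genes was 1.40, against 0.01 over all genes tested. Synpo2 (5 to 10 counts in WT, 146 to 394 in db/db) and Lmod1 (6 to 15 and 17 to 45) passed the count filter through db/db alone, where their counts were higher. The median also leaves out Tagln, Cnn1 and Actg2, which held too few counts, so it is given as a description. In whole tissue, fewer cells of a type and less RNA per cell cannot be told apart, and the same holds for rises.

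**Figure D1:**
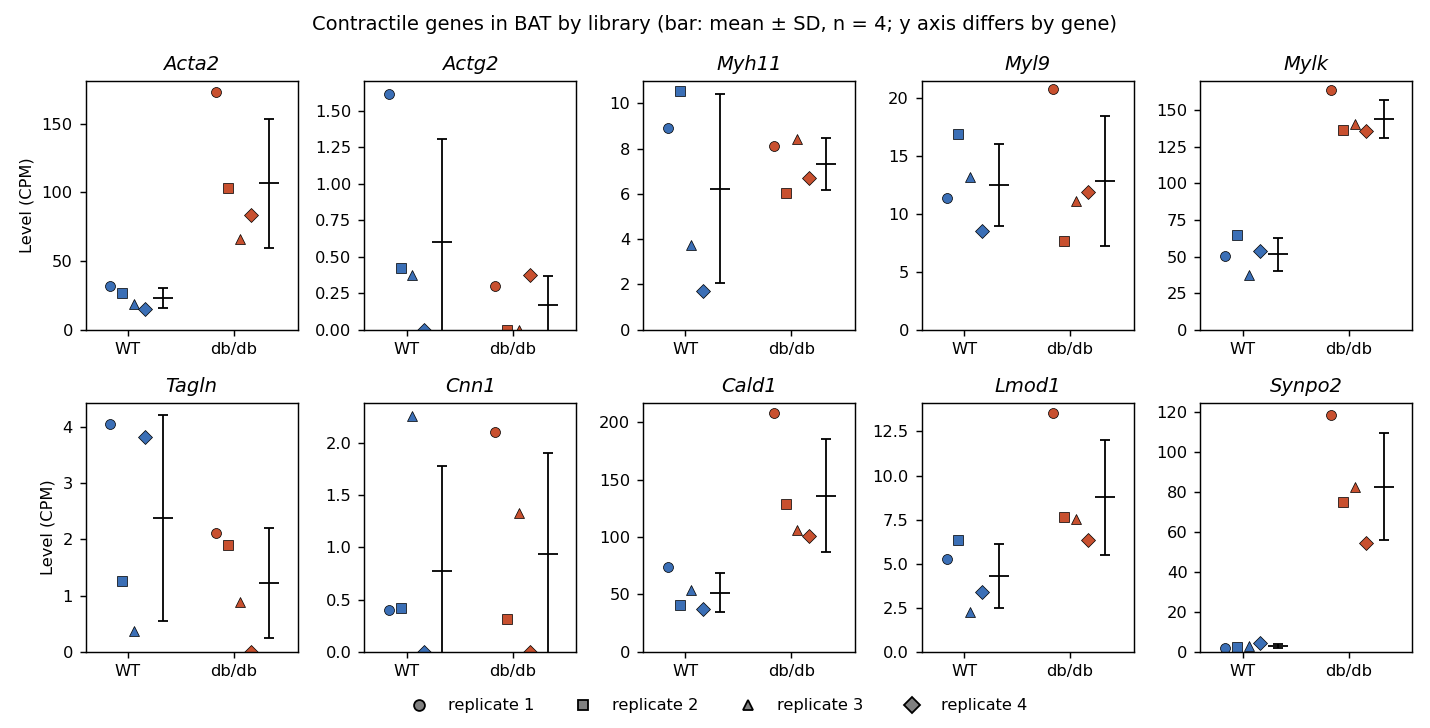
Level of each of the 10 contractile genes, in CPM on a linear axis that starts at 0 and differs by gene, in the 4 WT libraries (blue) and the 4 db/db libraries (red), with symbols for the replicate number and bars for the mean ± SD. Acta2, Mylk, Cald1 and Synpo2 show no overlap between the genotypes, whereas Myl9, Myh11 and Lmod1 overlap, and Actg2, Tagln and Cnn1 lie close to the floor of detection.

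Acta2 (ENSMUSG00000035783, chr19:34241090-34255590, minus strand, mm10) encodes smooth muscle alpha-actin, the actin isoform by which myofibroblasts are usually recognised. WT replicates 1 to 4 had 32.0, 26.6, 18.8 and 15.3 CPM, and db/db replicates 1 to 4 had 173.3, 103.4, 66.1 and 83.7 CPM. The genotypes did not overlap, and the lowest db/db library held 149 counts against at most 79 in WT. The log2 fold change was 2.21 (SE 0.27, edgeR adjusted p = 1.3e-05). Actin genes resemble each other, and reads of Acta1, whose mean rose from 230.6 to 1910 CPM, could in principle be counted for Acta2. No 75-base stretch of the annotated Acta2 transcripts, 75 being the number of sequencing cycles, was identical to one of Acta1, Actb, Actc1, Actg1 or Actg2.

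Synpo2 (ENSMUSG00000050315, chr3:123076519-123236149, minus strand), which encodes the actin-bundling protein synaptopodin 2 or myopodin, showed the largest change of the 7. WT libraries held 5, 6, 8 and 10 counts, or 2.02 to 4.25 CPM, and db/db libraries held 394, 236, 186 and 146 counts, or 118.5, 75.1, 82.5 and 54.3 CPM. The WT level was only a few times the floor of detection, so the size of the ratio rests on few counts in that genotype. The log2 fold change was 4.79 (SE 0.29, edgeR adjusted p = 3.9e-09).

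Mylk (ENSMUSG00000022836, chr16:34745210-35002420, plus strand), the myosin light chain kinase that starts contraction, had 50.2, 65.0, 37.2 and 53.5 CPM in WT replicates 1 to 4 and 163.7, 136.2, 140.5 and 135.8 CPM in db/db. Its db/db libraries were the most alike among the called genes, with a coefficient of variation of 9.21%, against 44.1% for Acta2, 36.4% for Cald1 and 32.4% for Synpo2. The log2 fold change of Mylk was 1.49 (SE 0.16, edgeR adjusted p = 3.0e-06). Of its annotated exonic bases, 6.85% overlap a pair of antisense genes, which held at most 2 counts in any library.

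Cald1 (ENSMUSG00000029761, chr6:34598500-34775473, plus strand) encodes caldesmon, which binds actin and restrains the myosin ATPase. It had 74.1, 40.5, 54.1 and 37.4 CPM in WT replicates 1 to 4 and 207.9, 128.8, 105.9 and 101.2 CPM in db/db. The genotypes did not overlap, and db/db replicate 1 was again the highest. The log2 fold change was 1.40 (SE 0.24, edgeR adjusted p = 0.00024).

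Lmod1, Myh11 and Myl9 did not pass the test. Lmod1 (ENSMUSG00000048096, chr1:135324807-135368065, plus strand), the smooth muscle leiomodin that nucleates actin filaments, had 5.26, 6.33, 2.26 and 3.40 CPM in WT and 13.5, 7.64, 7.54 and 6.32 CPM in db/db. The lowest db/db library lay just inside the WT range, and the log2 fold change was 1.04 (95% interval 0.28 to 1.80, edgeR adjusted p = 0.0558). The adjusted p fell to 0.0453 without WT replicate 2 and to 0.048 without db/db replicate 4, so the call turned on single libraries. Myh11 (ENSMUSG00000018830, chr16:14194535-14291372, minus strand) encodes the smooth muscle myosin heavy chain, regarded as the most specific marker of mature smooth muscle. It had 8.90, 10.6, 3.76 and 1.70 CPM in WT and 8.12, 6.05, 8.42 and 6.70 CPM in db/db, with all db/db libraries inside the WT range. Its log2 fold change of 0.23 had a 95% interval of -0.61 to 1.07 (edgeR adjusted p = 0.737). Myl9 (ENSMUSG00000067818, chr2:156775420-156781658, plus strand), the smooth muscle regulatory light chain phosphorylated by the Mylk kinase, had 11.3, 16.9, 13.2 and 8.49 CPM in WT and 20.8, 7.64, 11.1 and 11.9 CPM in db/db. Its log2 fold change of 0.05 had a 95% interval of -0.56 to 0.66 (edgeR adjusted p = 0.921), so a rise of the size seen in Acta2, Mylk or Cald1 lay outside the interval. For Myh11 the interval lay below these values too, but its log2 fold change with Acta1 and Ckm in the model was 0.55 (SE 0.89), and 0.998 (SE 1.03) without db/db replicate 1 as well, with intervals that hold them. These intervals were taken from the SE by the normal approximation and are not adjusted for the number of genes.

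Tagln, Cnn1 and Actg2 held too few counts for the test across genes. Tagln (ENSMUSG00000032085, chr9:45929619-45936058, minus strand), which encodes the actin-binding protein transgelin, had 10, 3, 1 and 9 counts in WT and 7, 6, 2 and 0 in db/db. Cnn1 (ENSMUSG00000001349, chr9:22099216-22109630, plus strand), which encodes calponin 1, a smooth muscle inhibitor of myosin, had 1, 1, 6 and 0 counts in WT and 7, 1, 3 and 0 in db/db. Actg2 (ENSMUSG00000059430, chr6:83512905-83536265, minus strand), the enteric smooth muscle gamma-actin, had 4, 1, 1 and 0 counts in WT and 1, 0, 0 and 1 in db/db. The genotypes overlapped in all 3 genes, and exact two-sided permutation tests of log2 CPM gave p = 0.371 for Tagln, 0.943 for Cnn1 and 0.20 for Actg2 (n = 4 each). In a fit that kept every gene with a count the edgeR adjusted p was 0.434 for Tagln, 0.926 for Cnn1 and 0.465 for Actg2. No difference was detected in these genes at this depth. The Tagln count is uncertain, because 67.9% of its exonic bases overlap Gm48529 or Pcsk7 on the other strand and the strand setting of the counting is not stated. Those neighbours held at most 3 and 32 counts in any library.

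The promoters of Acta2, Synpo2 and Myl9 are shown because the first pair rose and Myl9 did not pass the test. The best known element of smooth muscle promoters is the CArG box, which binds serum response factor (SRF) and is made of a C pair, a run of A or T letters and a G pair, and so is sought on both strands at once. Windows of 250 bases before to 50 bases after the gene start, 300 bases in all, were taken from RefSeq (GRCm38.p6) and are written 5′ to 3′ on the gene's strand. Capitals mark a CArG box or a stretch with the C pair and the G pair of one and 1 letter other than A or T in the run between them. Departures in the C or G pair were not sought. The windows are chr19:34255324-34255623 (minus strand) for Acta2, chr3:123236100-123236399 (minus strand) for Synpo2 and chr2:156775214-156775513 (plus strand) for Myl9.
Acta2: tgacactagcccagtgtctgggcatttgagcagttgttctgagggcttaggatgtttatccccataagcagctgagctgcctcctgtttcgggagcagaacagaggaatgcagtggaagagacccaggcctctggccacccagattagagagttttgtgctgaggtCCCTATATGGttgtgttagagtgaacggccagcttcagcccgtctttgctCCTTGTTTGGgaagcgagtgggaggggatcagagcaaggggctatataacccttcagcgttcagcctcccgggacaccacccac
Synpo2: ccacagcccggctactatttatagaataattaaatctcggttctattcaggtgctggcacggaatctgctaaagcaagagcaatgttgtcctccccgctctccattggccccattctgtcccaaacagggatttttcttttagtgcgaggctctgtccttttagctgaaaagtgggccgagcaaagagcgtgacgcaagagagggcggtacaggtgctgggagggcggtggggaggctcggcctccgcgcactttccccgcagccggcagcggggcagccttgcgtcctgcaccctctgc
Myl9: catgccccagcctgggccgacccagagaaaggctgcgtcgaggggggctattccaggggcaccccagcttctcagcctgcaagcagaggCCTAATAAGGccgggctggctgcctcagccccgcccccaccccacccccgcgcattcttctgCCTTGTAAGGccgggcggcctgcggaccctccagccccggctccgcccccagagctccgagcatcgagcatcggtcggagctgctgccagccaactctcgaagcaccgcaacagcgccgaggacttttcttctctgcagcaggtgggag

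The Acta2 window held a pair of stretches with 1 such departure, beginning 84 and 34 bases before the start. Myl9, which differed least between the genotypes, held the only exact CArG box among the contractile genes, beginning 161 bases before the start, and a stretch with 1 such departure 99 bases before it. Of the 10 genes, 7 were matched to the RefSeq table in 8 windows, and the windows of Synpo2, Mylk, Cald1, Lmod1 and Cnn1 held neither form. Tagln, Myh11 and Actg2 were not matched. Of all 32851 windows of the same length, 1.63% held an exact CArG box and 9.98% one with no more than 1 departure in the run of A or T. A match in these letters is a description of the window and not a binding site.

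Because skeletal muscle RNA differed between libraries and Synpo2, for one, is also made by striated muscle, each of the 7 tested genes was related to Acta1 and Ckm across the 8 libraries. The genotypes formed separate clusters in both, so the relation was computed on deviations of log2 CPM from the genotype means, tested by exact permutation within genotypes, and adjusted over 14 relations. Acta1 and Ckm themselves moved together, with a Pearson r of 0.96 (exact permutation p = 0.00174, the smallest possible). None of the 14 relations passed after adjustment, 2 did before it, and 12 were positive.

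The pair that passed before adjustment were both relations of Synpo2, whose deviations among the WT libraries rest on 5 to 10 counts each, near counting error. Its deviations followed Ckm with a Pearson r of 0.95 (exact permutation p = 0.00694, adjusted p = 0.0972) and a Spearman rho of 0.81 (exact permutation p = 0.0451, adjusted p = 0.227). They followed Acta1 with a Pearson r of 0.87 (exact permutation p = 0.0191, adjusted p = 0.134) and a Spearman rho of 0.79 (exact permutation p = 0.0382, adjusted p = 0.227). When the 2 libraries with the muscle gene farthest from its median were left out, the Pearson r of Synpo2 was 0.84 with Ckm and 0.57 with Acta1. Without WT replicate 2 both relations passed (exact permutation, adjusted p = 0.0486 for each), so the call turned on that library. Mylk followed Acta1 with a Pearson r of 0.62 (exact permutation p = 0.0938, adjusted p = 0.438) and a Spearman rho of 0.74 (exact permutation p = 0.0486, adjusted p = 0.227), and r was 0.60 without the 2 farthest libraries. With Ckm it had a Pearson r of 0.41 (exact permutation p = 0.365, adjusted p = 0.81) and a Spearman rho of 0.62 (exact permutation p = 0.137, adjusted p = 0.48), and r was 0.20 without the 2 farthest libraries and 0.26 without db/db replicate 1. For Acta2 the Pearson r was 0.16 with Acta1 and 0.03 with Ckm (exact permutation p = 0.734 and 0.938, adjusted 0.935 and 0.986), with a Spearman rho of 0.14 and 0.02 (exact permutation p = 0.788 and 0.979). For Cald1 the Pearson r was 0.04 and 0.01 (exact permutation p = 0.924 and 0.986, adjusted 0.986 for both), with a Spearman rho of 0.05 and -0.05 (exact permutation p = 0.948 for both). These values rested on db/db replicate 1. Without it the Pearson r of Acta2 was -0.59 with Acta1 and -0.75 with Ckm, and that of Cald1 was -0.79 and -0.77, none of which passed (exact permutation, adjusted p = 0.551 for Acta2 with Acta1 and 0.311 for the other 3).

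The highest db/db library stood above the lowest by 4.89-fold in Acta1 and 4.83-fold in Ckm, against 1.21-fold in Mylk, 2.05-fold in Cald1, 2.18-fold in Synpo2 and 2.62-fold in Acta2. Relative to the WT mean, Acta1 stood 17.2-fold, 4.61-fold, 7.75-fold and 3.53-fold higher in db/db replicates 1 to 4, and Ckm 11.9-fold, 3.80-fold, 5.32-fold and 2.47-fold. Mylk stood 3.18-fold, 2.65-fold, 2.73-fold and 2.64-fold higher in the same libraries. Synpo2, at 40.2-fold, 25.4-fold, 27.9-fold and 18.4-fold, was likewise highest in db/db replicate 1 and lowest in replicate 4. Its replicates 3 and 2 (186 and 236 counts) were too close to be ordered. Mylk was also highest in db/db replicate 1, with replicates 2, 3 and 4 too close to be ordered. Acta2, at 7.48-fold, 4.47-fold, 2.85-fold and 3.61-fold, did not have the order of Acta1, since db/db replicate 3 was second in Acta1 and last in Acta2.

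**Figure D2:**
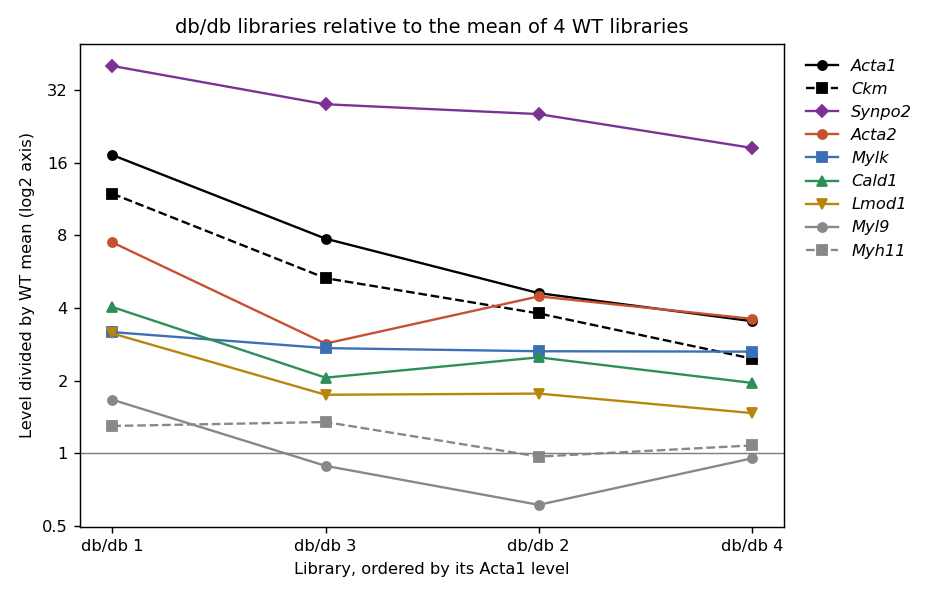
Level in each db/db library divided by the mean of the 4 WT libraries, on a log2 axis, for Acta1 and Ckm (black) and the 7 tested contractile genes (coloured or grey), with libraries ordered by their Acta1 level and lines joining the values of 1 gene. Acta1 runs from 17.2 down to 3.53, and Synpo2 is also highest in db/db 1 and lowest in db/db 4, at a higher ratio, with db/db 3 and db/db 2 close. Mylk lies between 3.18 and 2.64, and Acta2 and Cald1 are higher in db/db 2 than in db/db 3.

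Adding the mean log2 CPM of Acta1 and Ckm to the model as a covariate left fewer calls. WT libraries held 5.64 to 7.69 of this measure and db/db libraries 8.40 to 10.68, without overlap, so the covariate takes up much of the genotype difference itself. With it 3.39% of all genes were called and 2.57% were called higher, in place of 27.7% and 15.8%. Of the contractile genes 2 were called, Synpo2 with a log2 fold change of 3.53 (SE 0.39, edgeR adjusted p = 1.1e-05) and Mylk with 1.11 (SE 0.30, edgeR adjusted p = 0.0439). Acta2 had a log2 fold change of 1.71 (SE 0.50, edgeR adjusted p = 0.0664) and Cald1 one of 1.18 (SE 0.47, edgeR adjusted p = 0.204), and neither passed. With genotype alone these were 2.21 (SE 0.27) and 1.40 (SE 0.24). In the same model without db/db replicate 1, a choice made after the data were seen, the log2 fold change was 2.75 in Acta2 (SE 0.45, edgeR adjusted p = 0.00087) and 2.05 in Cald1 (SE 0.37, edgeR adjusted p = 0.0021), and both passed, where 4.20% of all 9385 genes were called and 282 were called higher. Synpo2 passed at 3.49 (SE 0.53, edgeR adjusted p = 0.00048), and Mylk, at 1.13 (SE 0.34, edgeR adjusted p = 0.0693), did not. Of the 7 genes only Synpo2 was called in both covariate fits. Without db/db replicate 1 and with no covariate the same 4 genes were called as with all libraries.

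**Figure D3:**
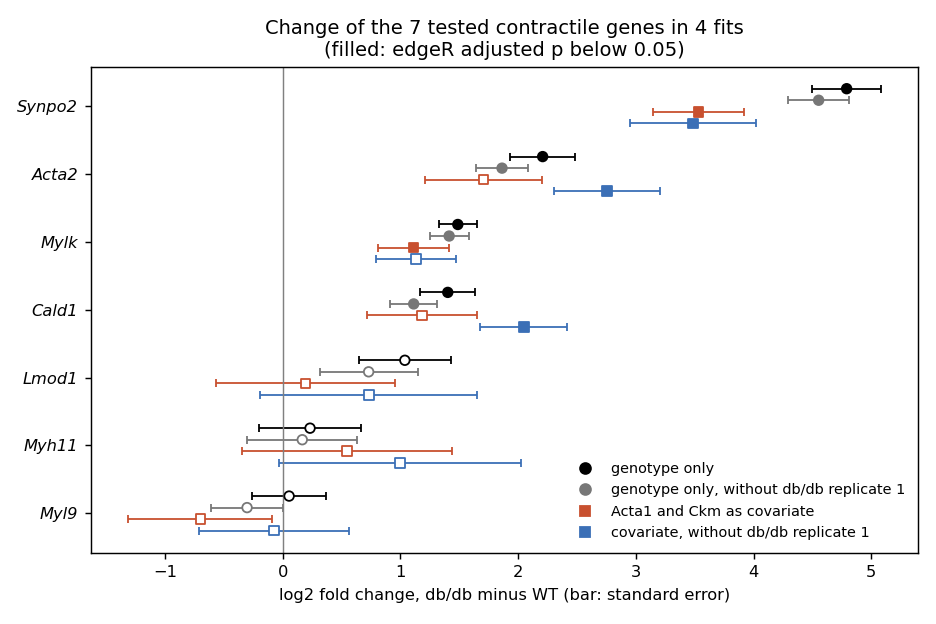
Log2 fold change, db/db minus WT, with its standard error, of the 7 tested contractile genes in 4 edgeR fits: genotype alone (black), the same without db/db replicate 1 (grey), with the Acta1 and Ckm level as covariate (red) and with the covariate but without db/db replicate 1 (blue). Filled symbols passed an adjusted p of 0.05. Synpo2 passed in all 4 fits, and Acta2 ranged from 1.71 to 2.75.

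The wider contractile machinery was described by a list of 35 further genes, of which 31 were tested. Of these, 19 were higher in db/db and 0 lower, with a median log2 fold change of 0.94, against 15.8% called higher and a median of 0.01 over all genes tested. Some of the 19, such as Cnn2 (4 to 11 counts in WT) and Tpm4 (4 to 18), passed the count filter through db/db alone. Among the called genes were the tropomyosins, which wind along actin filaments: Tpm2 (log2 fold change 3.03, SE 0.45), Tpm4 (2.12, SE 0.34) and Tpm1 (2.07, SE 0.31). Tpm1 and Tpm2 are also major skeletal muscle genes, as is Des, the muscle intermediate filament desmin (1.67, SE 0.38). Some of the non-muscle and widely expressed members also rose: the regulatory light chain gene Myl12a (1.81, SE 0.16), the actin gene Actb (1.24, SE 0.13), the alpha-actinin Actn1 (1.63, SE 0.26), filamin A from Flna (1.15, SE 0.24), and Cnn2 (1.86, SE 0.39) and Tagln2 (1.37, SE 0.23), the relatives of Cnn1 and Tagln. Others of that kind did not pass: the non-muscle myosin genes Myh9 (0.41, SE 0.15, edgeR adjusted p = 0.0528, without overlap between the genotypes, and called under a replicate block, with at least 10 counts required in every sample and without WT replicate 1) and Myh10 (0.33, SE 0.45, edgeR adjusted p = 0.637), and Cnn3 (0.52, SE 0.27, edgeR adjusted p = 0.177). Part of the exonic bases of Des, Tpm4, Actn1, Myl12a and Cnn3, and of Ppp1r12b and Ppp1cb below, overlap other annotated genes, and their counts are uncertain to that extent. The same holds for Ckm (15.5% of its exonic bases), used in the relations and the covariate, and for Pdgfra (6.5%) and Notch3 (6.03%) below. Smaller parts of Ndufa4l2, Abcc9 and Mcam overlap too.

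Genes that signal to the contractile apparatus passed in part, and differences between the genes were not tested. Rock2, a kinase that keeps the light chain phosphorylated, rose (log2 fold change 1.04, SE 0.16), while the related Rock1 had 0.07 (SE 0.13, edgeR adjusted p = 0.756). Of the myosin phosphatase genes, Ppp1r12b rose (1.05, SE 0.36, edgeR adjusted p = 0.038), a call lost in 6 of the 8 fits that left out 1 library, with limma-voom, with scaling by library total alone and with every gene counted. Ppp1r12a had -0.18 (SE 0.14, edgeR adjusted p = 0.349) and the catalytic subunit Ppp1cb 0.00 (SE 0.15, edgeR adjusted p = 0.989). Srf, which encodes the factor that binds CArG boxes, had 0.09 (SE 0.26, edgeR adjusted p = 0.841). Myocd, its smooth muscle coactivator, held at most 2 counts in any library and was not tested. With Acta1 and Ckm as covariate only Myl12a and Actb of the 31 were called, where 2.57% of all genes were called higher. Without db/db replicate 1 as well Myl12a, Tagln2, Actb and Flna were called, where 282 of 9385 genes were called higher.

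**Figure D4:**
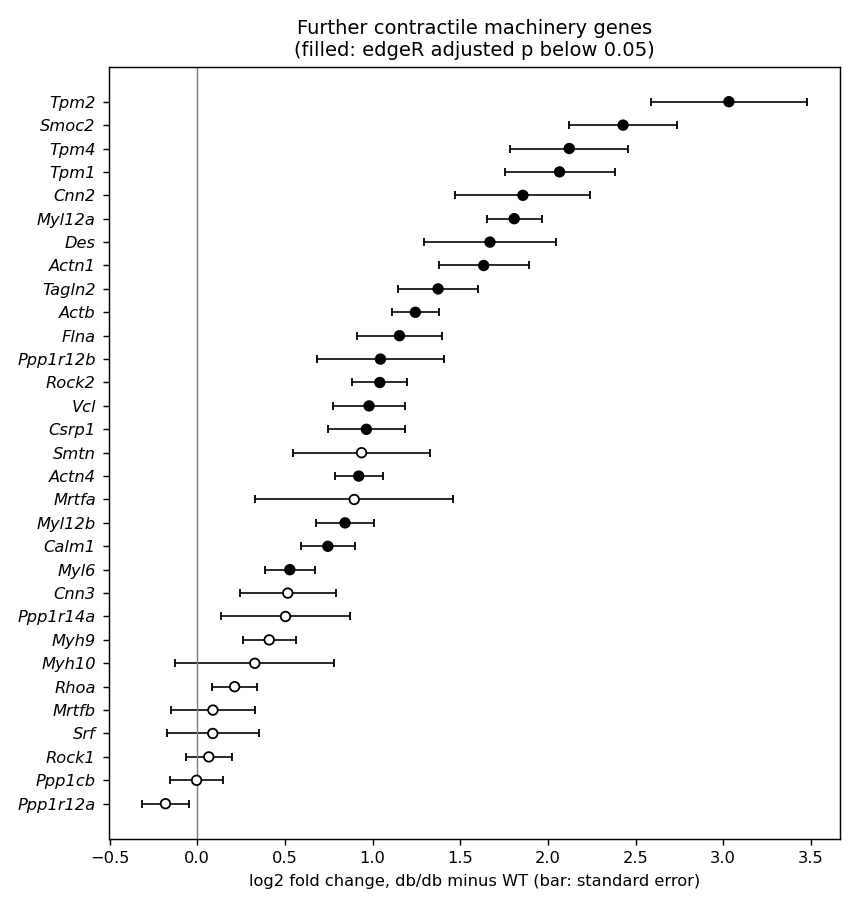
Log2 fold change, db/db minus WT, with its standard error, of the 31 tested genes of the wider contractile machinery list, ordered by size. Filled symbols passed an adjusted p of 0.05 in edgeR: the 19 that passed are all above 0, from 0.53 in Myl6 to 3.03 in Tpm2.

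Markers of the other cells that could hold these transcripts moved with the genotype in part, where 15.8% of all genes tested were called higher and 11.9% lower. Of 9 tested pericyte markers 4 were higher in db/db and 0 lower. All 10 listed, with 1 not tested, had a summed level of 241.6 to 260.2 CPM in WT and 328.8 to 420.6 CPM in db/db. The called pericyte genes were Ndufa4l2 (log2 fold change 1.67, SE 0.41, edgeR adjusted p = 0.0057), Mcam (1.38, SE 0.26, edgeR adjusted p = 0.00061), Cspg4 (1.02, SE 0.35, edgeR adjusted p = 0.0363) and Rgs5 (0.51, SE 0.13, edgeR adjusted p = 0.0067). Cspg4 lost its call under the replicate block and in 5 of the 8 fits that left out 1 library. Some markers of these lists, such as Ndufa4l2 with 2 to 7 counts in WT, passed the count filter through db/db alone. Pdgfrb had 0.55 (SE 0.29, edgeR adjusted p = 0.179) and Notch3 0.61 (SE 0.36, edgeR adjusted p = 0.229), and the values of Kcnj8 (-0.30, SE 0.22, edgeR adjusted p = 0.35) and Abcc9 (-0.18, SE 0.28, edgeR adjusted p = 0.688) were below 0. Of 8 fibroblast markers 7 were higher, but 4 without db/db replicate 1 and 5 without WT replicate 4 or scaled by library total alone, with a summed level of 506 to 619 CPM in WT and 935 to 1957 CPM in db/db. Among them Col1a1 rose by 1.47 (SE 0.22) and Pdgfra by 1.24 (SE 0.44, edgeR adjusted p = 0.0457), a call that was lost with scaling by library total alone and in 5 of the 8 fits that left out 1 library. Of 6 tested endothelial markers 0 were higher and 3 lower, and Pecam1 had -0.31 (SE 0.17, edgeR adjusted p = 0.202). All 7 listed, with 1 not tested, had a summed level of 246.2 to 320.1 CPM in WT and 180.4 to 217.2 CPM in db/db. The 12 skeletal muscle markers summed to 436 to 1559 CPM in WT and 2301 to 11430 CPM in db/db. Of 6 macrophage markers 5 were higher, with a summed level of 103.4 to 129.5 CPM in WT and 483.2 to 863.4 CPM in db/db. Of 6 adipocyte markers 2 were higher, the general adipocyte genes Plin1 (log2 fold change 0.79, SE 0.15) and Fabp4 (0.65, SE 0.21). The 3 that were lower were the brown fat genes Cidea (-1.24, SE 0.17), Ucp1 (-0.65, SE 0.19) and Cox8b (-0.63, SE 0.16). The summed level of the 6 was 15290 to 21390 CPM in WT and 16510 to 22310 CPM in db/db. Fabp4 was the largest part of it, at 5070 to 11410 CPM in WT and 10160 to 15140 CPM in db/db, so the sum does not follow the brown fat genes. The mean of Cidea went from 4356 CPM in WT to 1839 CPM in db/db, that of Ucp1 from 2248 to 1429 CPM and that of Cox8b from 1618 to 1046 CPM. Fabp4 lost its call in 5 and Ucp1 in 2 of the 8 fits that left out 1 library. The 4 cardiac muscle markers held at most 4 counts in any library. With Acta1 and Ckm as covariate, 0 pericyte, 1 fibroblast and 3 macrophage markers were called higher, and 0 endothelial and 0 adipocyte markers were called in either direction. The share of each of these cells in the rises of Acta2, Mylk, Cald1 and Synpo2 was not tested.

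The genes whose pattern was most like that of the 4 contractile genes with a mean of at least 20 CPM, Acta2, Mylk, Cald1 and Synpo2, were sought among 4527 genes of that level. Likeness was Pearson r between a gene's deviations from its genotype means over the 8 libraries and the mean scaled deviations of the 4, so the difference between genotypes had no part in it. The 5 most alike were Ythdf2 (0.96), Rock2 (0.94), Itgb1 (0.94), Ly6a (0.94) and Acin1 (0.92). Of these, Rock2 and the integrin gene Itgb1 (log2 fold change 0.56, SE 0.12) also rose in db/db, whereas Ythdf2 had -0.08 (SE 0.18, edgeR adjusted p = 0.778). By the same measure Col1a1 stood at 0.86 (rank 37), Actb at 0.84 (rank 49), Acta1 at 0.63 (rank 324), Col3a1 at 0.60 (rank 381), Ckm at 0.52 (rank 526), Pecam1 at 0.31 and Rgs5 at -0.06. Synpo2 reached the level of 20 CPM through db/db alone, and its deviations among the WT libraries rest on 5 to 10 counts each, near counting error. These libraries share their depth and scaling, and the values are given as a description.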

How the data were processed

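BAT of 4 WT and 4 db/db mice was profiled as single-end mRNA libraries, with genotype and replicate number taken from sample titles. The authors deposited raw counts per Ensembl gene on mm10. The methods name bbduk, STAR and HTSeq-count, whereas the submitters' processing notes list Trimmomatic, HISAT2 and DESeq2, and which made the file could not be told. Strand setting and molecular identifiers are not given in the sources used here, so PCR copies may be counted. The authors' normalized values and sample sheet were not used.

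Of 31053 identifiers, 30934 matched GENCODE M21, which also gave coordinates and overlaps, and the other 119 held at most 0.00758% of a library. Genes were filtered by filterByExpr (minimum count 10, minimum total 15) and scaled by TMM, and db/db was compared with WT by edgeR 4.0.16 (R 4.3.3) quasi-likelihood tests. Log2 CPM used a prior count of 2. Library totals set the precision, and floors of 3 counts cover counting error only. On simulated data in which each changed gene differed by 2 in log2, edgeR called 180 of 181 changed genes among 9046, with 9 false calls. It called 0 genes among 9062 when none was changed. Smaller changes were not simulated, so the power to call them was not measured.

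The genes named were the 10 members, Acta1 and Ckm, genes of the contractile machinery list, defining markers of other cell types and the 5 genes most alike in pattern; contractile machinery genes that did not pass and the pericyte genes Ndufa4l2, Mcam, Cspg4, Kcnj8 and Abcc9 and the adipocyte genes Plin1, Fabp4, Cidea and Cox8b lie outside that rule and were chosen after their values were seen, as were the values of Col1a1, Col3a1, Actb, Acta1, Ckm, Pecam1 and Rgs5 in the search for likeness. The members and lists were chosen with earlier results of these data known. The alternatives were other scalings, other filters, DESeq2 1.42.0, limma-voom (limma 3.58.1), the replicate number as a block, the Acta1 and Ckm covariate and leaving out each library. Exact tests used scipy 1.17.1.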

Additional observations from a re-analysis of the deposited data

Results flagged for a closer look

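In db/db replicate 1 Mylk stood at 163.7 CPM (544 counts), apart from the other 3 db/db libraries at 135.8 to 140.5 CPM. The gap was 0.83 of the range of the group, just past Dixon's 95% critical value for 4 samples. Of 24 sets of 4 values examined 1 was past that value, and chance alone gives about 1 in 20, or 1.2 of 24. Mylk was called higher in db/db also without this library.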

How the results depend on the processing

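The same 4 contractile genes were called higher, and none lower, under RLE, upper-quartile and total scaling, DESeq2, limma-voom and with every gene counted. With at least 10 counts required in every sample 4 of the 10 genes were tested and 3 were called, because Synpo2 was not tested. Leaving out 1 library gave 4 to 5 called genes, and 2236 to 2483 over all genes, against 2568. The Acta1 and Ckm covariate left 2 contractile genes and 314 genes in all, and 394 genes in all without db/db replicate 1. Myl9 had a log2 fold change of -0.70 with the covariate, -0.073 with it and without db/db replicate 1, and -0.30 to 0.24 when 1 library was left out, and Myh11 had 0.55 with the covariate, 0.998 with it and without db/db replicate 1, and -0.085 to 0.59 in the last case. The cause of these changes was not tested.

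With 1 library left out, 0 to 1 contractile genes were related to Acta1 and 0 to 1 to Ckm, and the difference of the muscle pair was 2.30 to 3.08, where an exact p cannot go below 0.0571. Without the 2 libraries farthest from the median, r with Acta1 was -0.29 for Acta2, 0.49 for Myh11 and -0.68 for Cald1, and r with Ckm was -0.53 for Acta2, 0.039 for Myh11 and -0.63 for Cald1. Spearman's rho of Cald1 with Ckm was -0.048. With each library left out in turn, r with Acta1 ran from -0.59 to 0.49 for Acta2, -0.15 to 0.82 for Myl9, -0.40 to 0.44 for Myh11 and -0.79 to 0.40 for Cald1. With Ckm it ran from -0.75 to 0.40 for Acta2, -0.31 to 0.76 for Myl9, -0.57 to 0.15 for Myh11, -0.77 to 0.51 for Cald1 and -0.15 to 0.59 for Lmod1.

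Samples with the same replicate number came from different mice and, over all tested genes, did not deviate together (r from -0.08 to 0.05). With the replicate number as a block the SE was 0.17 for Acta2 and 0.15 for Cald1, against 0.27 and 0.24 without it. The SE of Myl9 and Myh11 rose slightly. Whether single genes share a batch by number was not tested. The replicate block called 4 contractile genes and 2557 genes in all. Depth limits Tagln, Cnn1 and Actg2, which held at most 10 counts in any library.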
